A study of Mus musculus with 8 samples.

Results

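The genes described here are antiviral genes that cells switch on in response to type I interferon. They were taken from a fixed list of 38 symbols, of which 35 had a probe set of their own among the 22180 genes measured. Ifi44 had none, and Oas1a and Dtx3l were covered by probe sets shared with Oas1g and Parp9. The list was chosen with earlier results of these data known, so its contrasts with all genes below are not independent support. RNA came from the brains of mice immunized with myelin oligodendrocyte glycoprotein (MOG), which sets off T cells against myelin and serves as a multiple sclerosis model, collected on day 14 at the peak of disease. All 4 groups were immunized, and each held 2 arrays: wild-type PBS, wild-type NDP-MSH, C57BL/6Je/e PBS and C57BL/6Je/e NDP-MSH (e/e below). Wild-type mice were recognised by a black coat and e/e mice by a yellow coat. The e/e allele is a recessive loss of function of Mc1r, the melanocortin 1 receptor, carried in every cell of these mice. NDP-MSH, a long-lived relative of alpha-MSH, can act on more than 1 melanocortin receptor, and 5 µg per mouse were injected intravenously on days 8, 10 and 12. PBS (phosphate-buffered saline) was the control treatment. The labels give neither age nor sex, nor the source of the wild-type mice. Nor do they say whether a pair of arrays came from separate animals, so a p-value here reflects only how far these arrays lay apart.

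Type I interferons (interferon alpha and beta) are secreted when a cell detects foreign or misplaced nucleic acid. They bind the receptor pair Ifnar1 and Ifnar2, whose kinases Jak1 and Tyk2 start the signal. Stat2 and Irf9 then act in the complex ISGF3, which binds the interferon-stimulated response element (ISRE) in the promoters of these genes. Interferon gamma, made by T cells and natural killer cells, acts through another promoter element (GAS) and switches on part of the same genes. In the inflamed brain, microglia, astrocytes, endothelial cells and invading leukocytes can all respond.

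The core of this element stands in part of the promoters. RefSeq promoters of build GRCm38.p6 were found for 24 of the 35 genes, and the 250 bases before the annotated start were searched on both strands for the ISRE core GAAANNGAAA (TTTCNNTTTC on the other strand) and for the GAS core TTCNNNGAA, which reads the same on both strands. The ISRE core was present in 11 of the 24 genes (45.8%) and in 3.46% of all 27025 genes with a promoter. GAS was present in 4 of the 24 (16.7%) and in 8.13% of all genes. The 4 were Bst2, Eif2ak2, Ifit2 and Irf1. Overlapping matches were each counted, and a match is a run of letters, not a known binding site. The stretches around the ISRE cores of 9 genes with values below are shown because they are the sequence that these genes have in common. Each reads 5′ to 3′ along the gene, with the core in capitals.

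Isg15, chr4:156200855-156200916, minus strand: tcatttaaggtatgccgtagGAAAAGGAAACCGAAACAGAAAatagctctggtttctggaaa

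Bst2, chr8:71537567-71537622, minus strand: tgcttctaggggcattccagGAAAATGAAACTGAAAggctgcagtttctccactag

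Oas1g, chr5:120887614-120887651, minus strand: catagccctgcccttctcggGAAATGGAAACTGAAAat

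Oas3, chr5:120777705-120777754, minus strand: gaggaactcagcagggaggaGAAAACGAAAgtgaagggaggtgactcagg

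Rsad2, chr12:26456543-26456592, minus strand: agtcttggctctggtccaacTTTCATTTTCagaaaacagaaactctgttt

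Ifit1bl1, chr19:34602043-34602092, minus strand: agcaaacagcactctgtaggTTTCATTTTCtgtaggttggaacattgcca

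Ifit3, chr19:34583353-34583436, plus strand: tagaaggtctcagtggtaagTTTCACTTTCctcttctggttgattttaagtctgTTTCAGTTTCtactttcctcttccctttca

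Ifit3b, chr19:34607749-34607832, plus strand: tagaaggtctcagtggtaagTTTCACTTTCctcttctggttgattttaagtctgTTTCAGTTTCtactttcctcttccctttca

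Stat2, chr10:128270256-128270305, plus strand: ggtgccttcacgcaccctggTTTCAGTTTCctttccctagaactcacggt

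Isg15 had 3 overlapping cores in a row, and Bst2 and Oas1g had 2. The Ifit3 and Ifit3b stretches were identical over all 84 bases. These near-identical genes lie on chromosome 19 on either side of Ifit1bl1, and their probe sets may measure each other's RNA. No ISRE core was present in the searched window of Irf7, Oasl2, Irf9 or Ifih1, which says only that these letters are not in that window.

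Each deposited value is centred on its gene's median over the 8 arrays. It is read here as log2, although the base is not stated. A value therefore says how far an array lay above or below the middle of the 8, and differences between arrays can be read while absolute levels cannot. The tissue was checked against markers of neurons, astrocytes and oligodendrocytes, of which 13 of the 14 found had a signal of 8 or above before centring, as far as the last digits of the values show it. That signal is a rough bound, not a level to be compared between genes, and 3 of 8 monocyte and macrophage markers reached it too. Some arrays stood apart from the others, singly or as a whole group. Both e/e NDP-MSH arrays and e/e PBS 2 carried Y-linked signal (Eif2s3y between 2.04 and 2.87, against -0.19 to 0.018 in the other 5). Xist, which silences an X chromosome in females, had values of -4.46 and -4.56 under NDP-MSH in e/e brains, against 0.56 and -0.82 under PBS, and ran from -0.56 to 0.67 in the wild-type brains. Xist thus separated the e/e groups, and sex cannot be told apart from treatment in these mice. The median of 6 cerebellar markers was -2.67 and -1.96 for wild-type NDP-MSH, against -0.082 to 0.36 elsewhere, and that of 6 pituitary markers was 2.98 in wild-type NDP-MSH 1 alone. The median of the 2 olfactory bulb markers found was 1.28 in wild-type NDP-MSH 2, against -0.21 to 0.27 elsewhere. All 4 oligodendrocyte markers found had a lower mean in wild-type NDP-MSH than in wild-type PBS (median difference -0.33), beside 45% of all genes.

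Across the 8 arrays the interferon-stimulated genes were low in 3 arrays that did not follow the treatment groups, e/e PBS 1 and both e/e NDP-MSH arrays. The median over the 35 genes was -0.77 for e/e NDP-MSH 2, -0.67 for e/e NDP-MSH 1, then -0.55 for e/e PBS 1. All 35 genes were below 0 in both e/e NDP-MSH arrays. The median was -0.17 in wild-type PBS 1, 0.22 and 0.33 in wild-type NDP-MSH 2 and 1, 0.36 in e/e PBS 2 and 0.41 in wild-type PBS 2. In 31 of the 35 genes, e/e PBS 1 and both e/e NDP-MSH arrays were the lowest 3 of the 8, an order seen in 4.86% of all genes. The highest value was in wild-type PBS 2 for 17 genes, in e/e PBS 2 for 12, and in a wild-type NDP-MSH array for 6. The median range from lowest to highest array was 1.31 for these genes and 0.33 for all genes. It was 1 or more in 27 of 35 and in 3.23% of all genes.

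**Figure D1:**
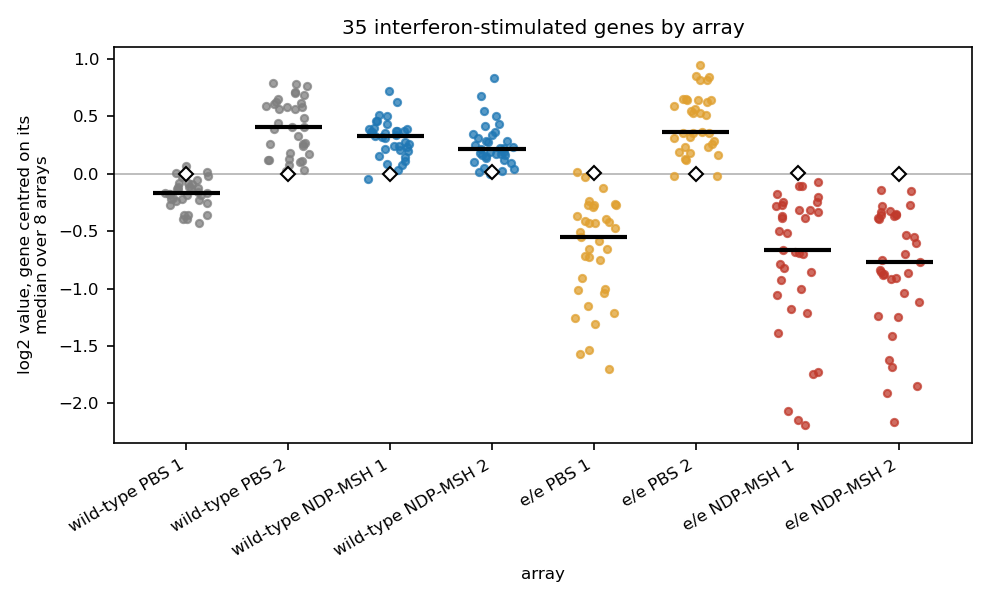
Centred log2 value (y axis) of each of the 35 interferon-stimulated genes (points, spread sideways for visibility) in each of the 8 arrays (x axis), with their median (bar) and the median of all 22180 genes (diamond). The points of e/e PBS 1 lie with those of the e/e NDP-MSH arrays, with medians between -0.77 and -0.55, and the points of e/e PBS 2 lie with those of wild-type PBS 2 and wild-type NDP-MSH, with medians between 0.22 and 0.41.

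The 2 PBS arrays of each genotype differed by far more in these genes than in genes at large. The 2 NDP-MSH arrays differed less than the PBS arrays did, though in e/e mice still more than in genes at large. Wild-type PBS 2 was above wild-type PBS 1 in 35 of 35 genes, by a median of 0.56, where the median absolute gap of all genes was 0.092. e/e PBS 2 was above e/e PBS 1 in 34 of 35, by a median of 1.05 against 0.10 for all genes, and by 1 or more in 21 of 35 against 0.888% of all genes. Ifit3 was the exception, with a gap of -0.036. Within the NDP-MSH groups the median absolute gap was 0.11 in wild-type and 0.17 in e/e mice, against 0.12 and 0.095 for all genes. This spread between the PBS arrays enters the error of every comparison below.

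**Figure D2:**
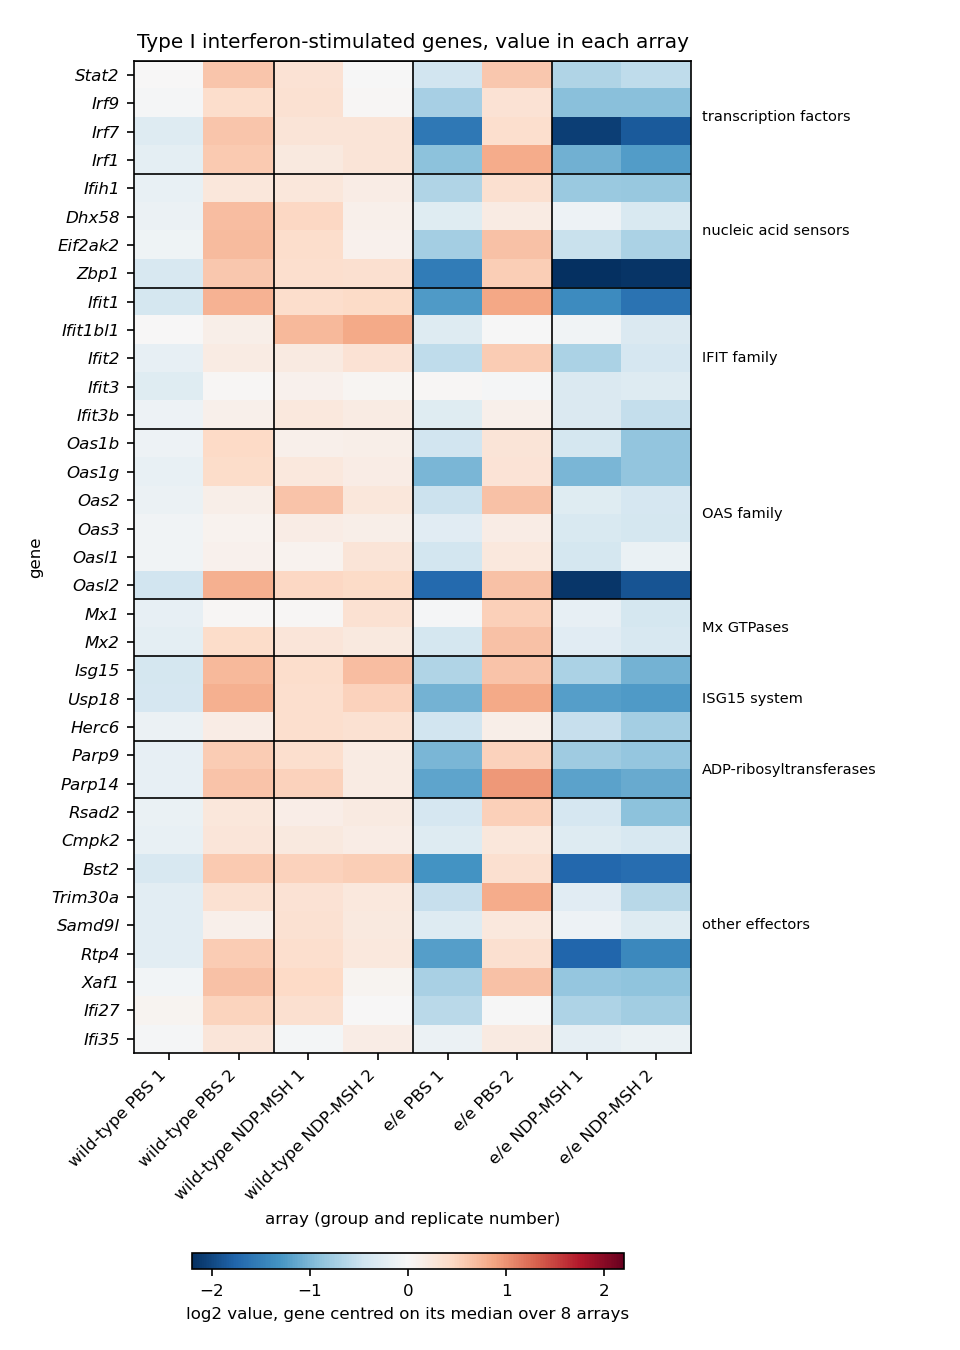
Centred log2 value (colour, red above and blue below the gene's median) of the 35 genes (rows, grouped by role) in the 8 arrays (columns, in pairs by group). Nearly all rows are blue in e/e PBS 1 and both e/e NDP-MSH arrays and red in e/e PBS 2 and wild-type PBS 2, with Zbp1, Oasl2 and Irf7 the deepest and Ifit1bl1 reddest in the wild-type NDP-MSH arrays.

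Pairs of values below are those of arrays 1 and 2 in that order. For all 4 transcription factors both e/e NDP-MSH arrays lay below both e/e PBS arrays, none past the threshold. The same held for 22 of the 35 listed genes and 14.3% of all genes, so it was not particular to the factors. Irf7, the factor that amplifies interferon alpha production, lay at -0.28 and 0.62 under PBS and 0.28 and 0.28 under NDP-MSH in wild-type brains, and at -1.57 and 0.36 under PBS and -2.06 and -1.85 under NDP-MSH in e/e brains. The wild-type NDP-MSH values were nearly equal and lay between the PBS values, and e/e PBS 1 was closer to the e/e NDP-MSH arrays than to e/e PBS 2. The NDP-MSH difference of Irf7 was 0.11 ± 0.56 (SE) in wild-type and -1.35 ± 0.56 in e/e mice. Stat2 lay at 0.0053 and 0.60 under PBS and 0.32 and -0.0053 under NDP-MSH in wild-type brains, and at -0.42 and 0.58 under PBS and -0.67 and -0.55 under NDP-MSH in e/e brains. Irf9, its DNA-binding partner in ISGF3, had values of -0.72 and 0.32 under PBS and -0.93 and -0.92 under NDP-MSH in e/e brains, against -0.025 and 0.39 under PBS and 0.33 and 0.025 under NDP-MSH in wild-type brains. In e/e mice the differences were -0.69 ± 0.32 for Stat2 and -0.72 ± 0.31 for Irf9, and in wild-type mice -0.15 ± 0.32 and -0.0051 ± 0.31. Irf1, a factor induced by interferon gamma as well as by type I interferon, lay at -0.21 and 0.58 under PBS and 0.21 and 0.28 under NDP-MSH in wild-type brains, and at -0.91 and 0.82 under PBS and -1.05 and -1.24 under NDP-MSH in e/e brains. Its difference was -1.10 ± 0.50 in e/e and 0.063 ± 0.50 in wild-type mice, and the gap between its e/e PBS arrays was 1.72.

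Among the nucleic acid sensors Zbp1, which binds Z-form nucleic acid and can trigger cell death, had the largest e/e difference of the 35 genes. It lay at -0.36 and 0.59 under PBS and 0.36 and 0.36 under NDP-MSH in wild-type brains, and at -1.54 and 0.54 under PBS and -2.19 and -2.16 under NDP-MSH in e/e brains. Both e/e NDP-MSH values were below both e/e PBS arrays, and their mean differed by -0.64 from e/e PBS 1 and by -2.72 from e/e PBS 2. The e/e difference was -1.68 ± 0.60 (95% interval -3.07 to -0.29), a 3.20-fold lower mean if the base is 2, that did not pass the threshold (limma, adjusted p = 1). In wild-type mice it was 0.25 ± 0.60. Ifih1 (MDA5), a sensor of long double-stranded RNA, lay at -0.16 and 0.25 under PBS and 0.24 and 0.16 under NDP-MSH in wild-type brains, and at -0.66 and 0.36 under PBS and -0.82 and -0.84 under NDP-MSH in e/e brains. Its e/e NDP-MSH values were below both e/e PBS values, with a difference of -0.68 ± 0.29, and the wild-type difference was 0.15 ± 0.29. Eif2ak2 (PKR), the kinase that stops translation on double-stranded RNA, had values of -0.75 and 0.65 under PBS and -0.50 and -0.70 under NDP-MSH in e/e brains, against -0.089 and 0.70 under PBS and 0.39 and 0.089 under NDP-MSH in wild-type brains. Here e/e PBS 1 was the lowest array, so the e/e groups overlapped (difference -0.55 ± 0.43). Dhx58 (LGP2), a regulator of Ifih1, lay at -0.14 and 0.68 under PBS and 0.46 and 0.10 under NDP-MSH in wild-type brains, and at -0.26 and 0.18 under PBS and -0.10 and -0.33 under NDP-MSH in e/e brains, and its difference was -0.18 ± 0.27 in e/e and 0.0060 ± 0.27 in wild-type mice. Dhx58 was highest in wild-type PBS 2 and showed the smallest e/e PBS gap of the 4 sensors, 0.45.

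The IFIT genes, whose proteins bind viral RNA and block its translation, lie in a cluster on chromosome 19 and differed in which arrays were high. Ifit1bl1 was the one with the smallest p in the wild-type comparison. It lay at 0.017 and 0.12 under PBS and 0.72 and 0.84 under NDP-MSH in wild-type brains, and at -0.29 and -0.017 under PBS and -0.076 and -0.32 under NDP-MSH in e/e brains, so both wild-type NDP-MSH arrays were above all 6 others. Its wild-type difference was 0.71 ± 0.12 (95% interval 0.42 to 1.00, limma, adjusted p = 0.123), and its e/e difference was -0.045 ± 0.12. Ifit1 lay at -0.40 and 0.76 under PBS and 0.40 and 0.41 under NDP-MSH in wild-type brains, and at -1.25 and 0.85 under PBS and -1.39 and -1.62 under NDP-MSH in e/e brains, and its e/e PBS arrays were 2.10 apart. Its difference was -1.30 ± 0.63 in e/e and 0.22 ± 0.63 in wild-type mice. Ifit3 had the smallest range of the 35 genes, 0.40, with values of 0.018 and -0.018 under PBS and -0.32 and -0.28 under NDP-MSH in e/e brains, against -0.26 and 0.021 under PBS and 0.087 and 0.041 under NDP-MSH in wild-type brains. Its e/e PBS arrays were nearly equal and both above the NDP-MSH arrays, and the e/e difference of -0.30 ± 0.099 had the smallest unadjusted p of the list (0.0191, limma, adjusted p = 1). Ifit3b lay at -0.11 and 0.11 under PBS and 0.24 and 0.18 under NDP-MSH in wild-type brains, and at -0.27 and 0.12 under PBS and -0.32 and -0.53 under NDP-MSH in e/e brains, with differences of -0.35 ± 0.15 in e/e and 0.21 ± 0.15 in wild-type mice. Ifit2 had differences of -0.53 ± 0.32 and 0.25 ± 0.32, and its e/e groups overlapped.

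The OAS genes encode enzymes that make 2-5A, the activator of RNase L, or related proteins without that activity. All 6 measured had a lower mean in e/e NDP-MSH than in e/e PBS, with differences from -1.49 to -0.18, and 5 of 6 had a higher mean in wild-type NDP-MSH, with differences from -0.047 to 0.44. Oasl2 had the widest range of all 35 genes, 2.93. It lay at -0.43 and 0.79 under PBS and 0.46 and 0.43 under NDP-MSH in wild-type brains, and at -1.70 and 0.64 under PBS and -2.14 and -1.91 under NDP-MSH in e/e brains. Its e/e PBS arrays were 2.35 apart and its wild-type PBS arrays 1.22 apart, while the arrays of each NDP-MSH group were 0.23 or less apart. Its e/e difference was -1.49 ± 0.69. Oas2 was highest in e/e PBS 2 and wild-type NDP-MSH 1, with values of -0.47 and 0.64 under PBS and -0.27 and -0.36 under NDP-MSH in e/e brains, against -0.12 and 0.12 under PBS and 0.62 and 0.25 under NDP-MSH in wild-type brains, and its wild-type difference was 0.44 ± 0.32. Oas3, which neighbours Oas2 on chromosome 5, lay at -0.078 and 0.078 under PBS and 0.16 and 0.14 under NDP-MSH in wild-type brains, and at -0.24 and 0.16 under PBS and -0.33 and -0.39 under NDP-MSH in e/e brains. It was lower in both e/e NDP-MSH arrays than in both e/e PBS arrays (-0.32 ± 0.13) and higher in both wild-type NDP-MSH arrays than in both wild-type PBS arrays (0.15 ± 0.13), neither past the threshold. Oas1g lay at -0.17 and 0.41 under PBS and 0.23 and 0.17 under NDP-MSH in wild-type brains, and at -1.01 and 0.31 under PBS and -1.01 and -0.87 under NDP-MSH in e/e brains, and its first e/e values under PBS and under NDP-MSH were equal at this precision. The probe set shared by Oas1a and Oas1g ran from -0.36 in e/e NDP-MSH 1 to 0.28 in wild-type NDP-MSH 1. Oas1b, which is truncated in C57BL/6 mice, lay between -0.86 in e/e NDP-MSH 2 and 0.44 in wild-type PBS 2.

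The Mx genes encode dynamin-like GTPases that block viruses, and C57BL/6 mice carry a disrupted Mx1, so its RNA says little about protein. Mx1 lay at -0.19 and 0.033 under PBS and 0.034 and 0.34 under NDP-MSH in wild-type brains, and at -0.033 and 0.53 under PBS and -0.18 and -0.39 under NDP-MSH in e/e brains. It was lowest in e/e NDP-MSH 2 and highest in e/e PBS 2, with an e/e difference of -0.53 ± 0.20 and a wild-type difference of 0.27 ± 0.20. Mx2 had a wild-type PBS gap of 0.62 and an e/e PBS gap of 1.04, and its differences were -0.43 ± 0.32 in e/e and 0.15 ± 0.32 in wild-type mice.

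Isg15, a ubiquitin-like protein that is attached to other proteins, and Usp18, the protease that removes it and also dampens the interferon receptor, had the same 2 lowest arrays. Isg15 lay at -0.39 and 0.71 under PBS and 0.39 and 0.68 under NDP-MSH in wild-type brains, and at -0.66 and 0.62 under PBS and -0.70 and -1.04 under NDP-MSH in e/e brains. Usp18 had values of -1.04 and 0.84 under PBS and -1.21 and -1.25 under NDP-MSH in e/e brains, against -0.36 and 0.78 under PBS and 0.36 and 0.50 under NDP-MSH in wild-type brains. For both genes wild-type PBS 2 and e/e PBS 2 were among the highest arrays and both e/e NDP-MSH arrays were the lowest. The e/e differences were -0.85 ± 0.46 for Isg15 and -1.13 ± 0.58 for Usp18, and the wild-type differences 0.38 ± 0.46 and 0.22 ± 0.58. Herc6, the mouse ligase that attaches Isg15, lay at -0.13 and 0.17 under PBS and 0.37 and 0.33 under NDP-MSH in wild-type brains, and at -0.43 and 0.13 under PBS and -0.51 and -0.75 under NDP-MSH in e/e brains. It was separated in both comparisons, higher in wild-type NDP-MSH (0.33 ± 0.19) and lower in e/e NDP-MSH (-0.48 ± 0.19) than in the PBS arrays of the same genotype.

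Parp9 and Parp14, ADP-ribosyltransferases that tune interferon signalling, ranged by 1.56 and 2.13 over the arrays. Parp14 was 2.10 higher in e/e PBS 2 than in e/e PBS 1, and its e/e PBS 1 value lay between those of the e/e NDP-MSH arrays. For Parp9 e/e PBS 1 was the lowest array, so the e/e groups overlapped in both genes. The differences were -1.04 ± 0.59 for Parp14 and -0.58 ± 0.44 for Parp9 in e/e mice, and 0.11 ± 0.59 and 0.093 ± 0.44 in wild-type mice. The probe set shared by Dtx3l, the ubiquitin ligase partner of Parp9, and Parp9 itself gave -0.67 and 0.45 under PBS and -0.85 and -0.93 under NDP-MSH in e/e brains.

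Of the other effectors, Bst2 (tetherin), which holds budding virus at the cell surface, lay at -0.36 and 0.58 under PBS and 0.51 and 0.55 under NDP-MSH in wild-type brains, and at -1.31 and 0.36 under PBS and -1.73 and -1.68 under NDP-MSH in e/e brains. The 2 wild-type NDP-MSH values and the 2 e/e NDP-MSH values were each within 0.05 of one another, while the PBS arrays differed by 0.94 in wild-type and 1.67 in e/e mice. Its e/e difference was -1.23 ± 0.50, a 2.34-fold lower mean if the base is 2 (limma, adjusted p = 1), and its wild-type difference 0.41 ± 0.50. Rtp4, which can bind viral and cellular RNA and slow replication, lay at -0.24 and 0.57 under PBS and 0.37 and 0.24 under NDP-MSH in wild-type brains, and at -1.21 and 0.36 under PBS and -1.75 and -1.42 under NDP-MSH in e/e brains, with an e/e difference of -1.15 ± 0.47. Rsad2 (viperin), which makes a chain-terminating nucleotide, lay at -0.15 and 0.24 under PBS and 0.15 and 0.19 under NDP-MSH in wild-type brains, and at -0.37 and 0.53 under PBS and -0.37 and -0.90 under NDP-MSH in e/e brains. Its neighbour on chromosome 12, Cmpk2, a nucleotide kinase, ranged by 0.62 where Rsad2 ranged by 1.43, and the e/e differences were -0.72 ± 0.30 for Rsad2 and -0.31 ± 0.19 for Cmpk2. Samd9l, a growth-restricting antiviral factor, had values of -0.28 and 0.23 under PBS and -0.11 and -0.28 under NDP-MSH in e/e brains, against -0.23 and 0.11 under PBS and 0.33 and 0.22 under NDP-MSH in wild-type brains. It was higher in both wild-type NDP-MSH arrays than in both wild-type PBS arrays (0.33 ± 0.18), and its e/e groups overlapped. Ifi27 lay at 0.065 and 0.48 under PBS and 0.35 and 0.016 under NDP-MSH in wild-type brains, and at -0.59 and -0.016 under PBS and -0.68 and -0.77 under NDP-MSH in e/e brains, below both wild-type PBS values in both e/e PBS arrays. Xaf1, a pro-apoptotic gene, and Trim30a had e/e PBS gaps of 1.36 and 1.32 and e/e differences of -0.83 ± 0.41 and -0.58 ± 0.39. Ifi35 had a range of 0.47 and an e/e difference of -0.21 ± 0.14.

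The first comparison asks how NDP-MSH changed these genes in wild-type mice. Their means were slightly higher after NDP-MSH, in 28 of 35 genes with a median of 0.15, against 55% of all genes higher with a median of 0.018. No interferon-stimulated gene passed (0 of 35, limma at an adjusted p of 0.05), where 0.176% of all genes did. The smallest adjusted p was that of Ifit1bl1, and 1 of 35 had an unadjusted p under 0.05, beside 12.3% of all genes. Groups did not overlap, with NDP-MSH higher, in 9 of 35 genes and in 25.3% of all genes, so the share was that of genes at large. The 9 were Ifit1bl1, Ifit2, Ifit3, Ifit3b, Mx1, Oas2, Oas3, Samd9l and Herc6, of which Ifit3 and Ifit3b may measure each other's RNA. The median depended on the PBS array used. Without wild-type PBS 1 it was -0.21 with 25 of 35 genes lower, and without wild-type PBS 2 it was 0.43 with 35 of 35 higher. In 22 of the 35 genes both NDP-MSH arrays lay between the 2 PBS arrays. This order was not counted over all genes, so it cannot be called particular to the list. The part in these differences of the low cerebellar and oligodendrocyte markers of the wild-type NDP-MSH arrays was not tested. Nor was that of the high pituitary markers of wild-type NDP-MSH 1 or the high olfactory bulb markers of wild-type NDP-MSH 2.

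The e/e mice, without a working Mc1r, were compared in the same way. All 35 genes had a lower mean after NDP-MSH, with a median of -0.58 and a range from -1.68 (Zbp1) to -0.045 (Ifit1bl1), while 46.3% of all genes were lower and their median was 0.0082. No gene of the list passed (0 of 35), and 0% of all genes did (limma, each listed gene's adjusted p = 1 to 3 digits). The unadjusted p was under 0.05 for 10 of 35, all lower, beside 1.78% of all genes with a lower mean. The 10 were Ifit3, Zbp1, Mx1, Herc6, Oas3, Bst2, Rtp4, Rsad2, Irf7 and Ifit3b. In 22 of the 35 genes both e/e NDP-MSH arrays lay below both e/e PBS arrays, a separation seen in 14.3% of all genes.

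**Figure D3:**
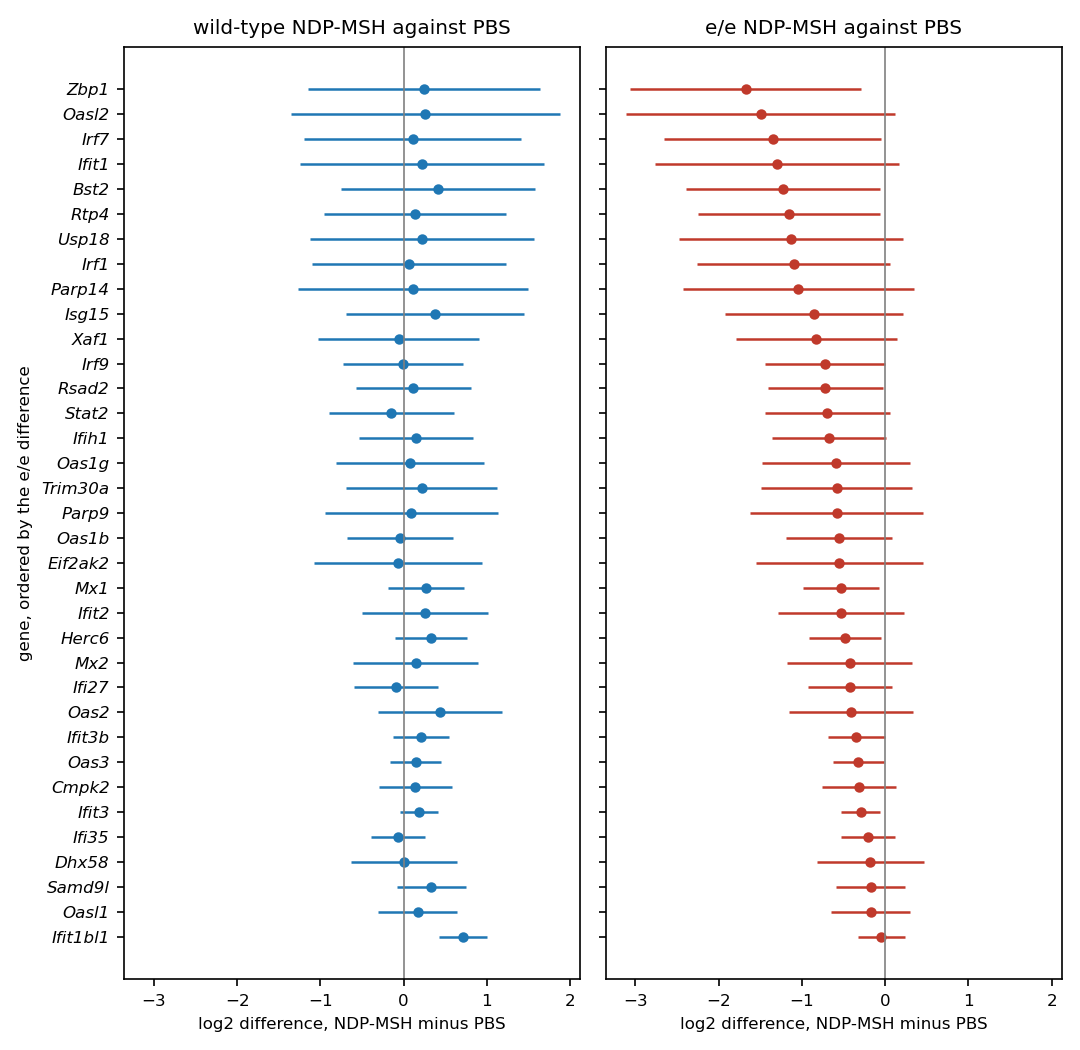
Log2 difference, NDP-MSH minus PBS (x axis), with its 95% interval from the limma fit (bars) for the 35 genes (y axis, ordered by the e/e difference) in wild-type mice (left, blue) and e/e mice (right, red), 2 arrays per group. The e/e points run from -1.68 for Zbp1 to -0.045 for Ifit1bl1, all below 0, and most intervals in both panels include 0.

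The size of the e/e difference rested on e/e PBS 2. Against e/e PBS 2 the mean of the e/e NDP-MSH arrays was lower in 35 of 35 genes, with a median difference of -1.19 and 20 genes at -1 or below. Against e/e PBS 1 it was lower in 23 of 35, with a median difference of -0.15, 0 genes at -1 or below and a lowest value of -0.64 for Zbp1. Both e/e NDP-MSH arrays were below e/e PBS 1 in 22 genes, above it in 6, and on either side of it in 7. These orders too were counted for the listed genes only. Leaving out e/e PBS 1, the fit called 1 of 35 genes, Zbp1 (-2.72 ± 0.32, limma, adjusted p = 0.0373), and 0.23% of all genes. Leaving out e/e PBS 2, it called 0 of 35 and 0.018% of all genes. Either way 1 e/e PBS array remained, which was assumed to vary like the arrays of the other groups, and the gap between the e/e PBS arrays no longer entered the error. e/e PBS 2 carried Y-linked signal and Xist together and e/e PBS 1 carried Xist alone, and the part of this in the gap was not tested.

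**Figure D4:**
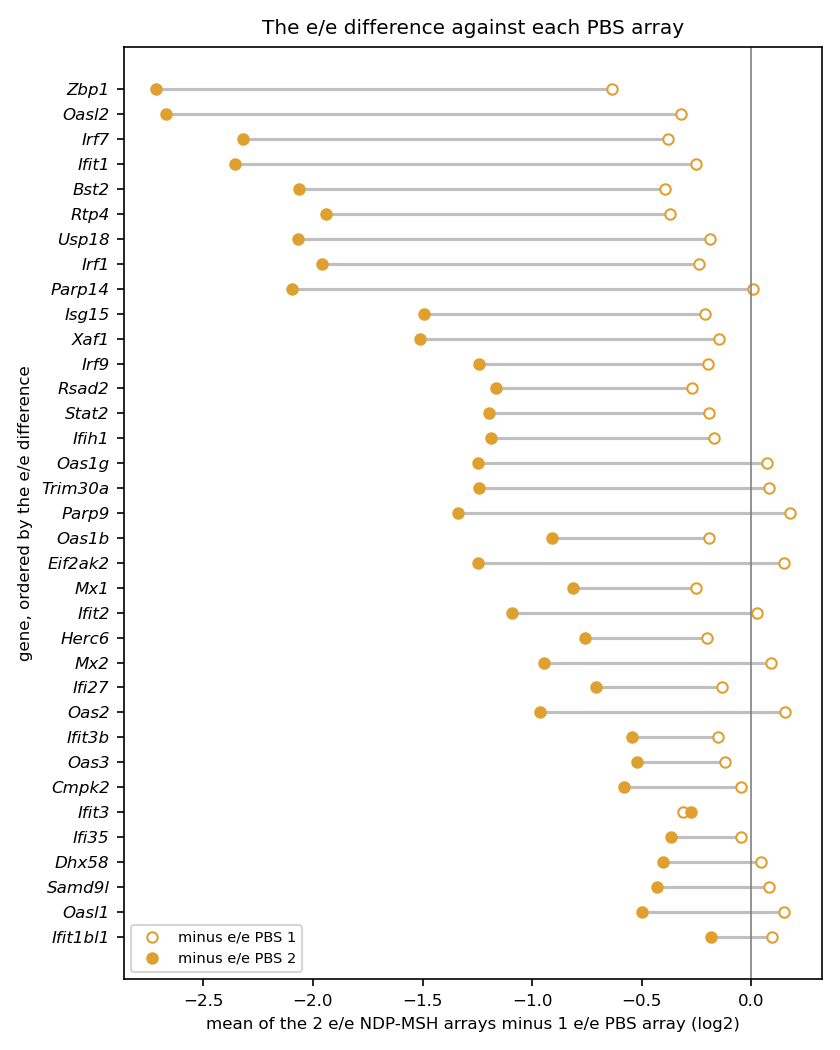
Mean of the 2 e/e NDP-MSH arrays minus e/e PBS 1 (open points) and minus e/e PBS 2 (filled points), in log2 units (x axis), for each of the 35 genes (y axis, ordered by the e/e difference), with a line joining the 2 values of a gene. Open points lie between -0.64 and 0.18 and filled points between -2.72 and -0.18.

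Whether the NDP-MSH effect differed between genotypes was tested as the wild-type minus the e/e difference. In its e/e part, sex cannot be told apart from treatment. Its wild-type part carries the low cerebellar and oligodendrocyte markers of both wild-type NDP-MSH arrays. That part also carries the high pituitary markers of wild-type NDP-MSH 1 and the high olfactory bulb markers of wild-type NDP-MSH 2. What any of these adds to the estimate was not tested. The estimate was positive for all 35 genes with a median of 0.77, and it was positive for 52.8% of all genes with a median of 0.011. No gene of the list passed (0 of 35, limma), where 0% of all genes did, and 6 of 35 had an unadjusted p under 0.05, all positive, beside 3.67% of all genes. These were Ifit1bl1 at 0.75 ± 0.17 (adjusted p = 0.422), Ifit3 at 0.48 ± 0.14, Herc6 at 0.81 ± 0.26, Mx1 at 0.80 ± 0.28, Ifit3b at 0.56 ± 0.21 and Oas3 at 0.47 ± 0.18. The larger estimates of Zbp1 (1.92 ± 0.84) and Bst2 (1.64 ± 0.71) had larger errors. Leaving out e/e PBS 1 gave a median of 1.28, and leaving out e/e PBS 2 gave 0.27.

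Between the PBS groups the e/e mean was lower than the wild-type mean in 27 of 35 genes (49.9% of all genes), with a median of -0.22. The direction depended on the PBS arrays used. Leaving out e/e PBS 1, the e/e mean was lower in 3 of 35 genes (median 0.29), and leaving out wild-type PBS 2, in 12 of 35 (median 0.042). Leaving out e/e PBS 2 instead gave 33 of 35 lower (median -0.71), and leaving out wild-type PBS 1 gave 34 of 35 (median -0.52). This comparison shares its PBS arrays with the other 3. No gene of the list passed (0 of 35, limma), nor did any other (0% of all genes), and 1 of 35 had an unadjusted p under 0.05, beside 4.91% of all genes. This was Ifi27, whose protein sits in mitochondria and the nuclear envelope, at -0.58 ± 0.21 (adjusted p = 0.971). Irf7 differed by -0.78 ± 0.56, Rtp4 by -0.59 ± 0.47, Irf9 by -0.38 ± 0.31 and Oas1g by -0.47 ± 0.38. Without e/e PBS 1 these 4 turned to between 0.14 and 0.19. Groups did not overlap, with e/e lower, in 2 of 35 genes and in 16.7% of all genes.

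The steps before these genes varied less. Of 19 interferon genes found, all had a signal between 4 and 8 before centring, and the list median stayed between -0.020 and 0.044 in every array. Ifnb1 (interferon beta) differed by 0.11 ± 0.077 in wild-type and 0.057 ± 0.077 in e/e mice, and Ifng (interferon gamma) by -0.0021 ± 0.15 and -0.11 ± 0.15. Whether these probe sets lay above background is not known, so these values say little about interferon itself. Among 12 receptor and signalling genes 10 had a lower e/e mean after NDP-MSH, with a median of -0.15. Ifnar1 lay at 0.12 and 0.070 under PBS and -0.10 and -0.022 under NDP-MSH in wild-type brains, and at 0.020 and -0.10 under PBS and 0.043 and -0.020 under NDP-MSH in e/e brains, and Ifnar2 at 0.042 and 0.18 under PBS and -0.042 and 0.18 under NDP-MSH in wild-type brains, and at -0.27 and 0.062 under PBS and -0.27 and -0.35 under NDP-MSH in e/e brains. Ifnar1 thus stayed within 0.13 of its middle, and Ifnar2 was low in the 3 arrays in which the stimulated genes were low. The smallest p in this list were those of Ifnar1 (-0.16 ± 0.078) and Socs1, a feedback inhibitor, (0.37 ± 0.23) in wild-type and Il10rb (-0.19 ± 0.089) and Ifnar2 (-0.21 ± 0.13) in e/e mice.

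Of 15 other sensors and adaptors 13 had a lower e/e mean, with a median of -0.19. The DNA sensor pathway genes Sting1 (-0.86 ± 0.29) and Cgas (-0.23 ± 0.092) had the smallest p there, and in wild-type mice Myd88 (0.39 ± 0.20) and Sting1 (0.42 ± 0.29). A further 35 interferon-stimulated genes outside the list had a lower e/e mean in 32 cases (median -0.40), with the smallest p for the antibody receptor Trim21 (-1.09 ± 0.36) and Slfn1 (-0.73 ± 0.24), and a higher wild-type mean in 26 (median 0.082), with the smallest p for Helz2 (0.48 ± 0.14) and Mndal (0.63 ± 0.20). Of these 4 lists and the 14 interferon gamma induced genes, 0 genes passed in the 4 comparisons (limma), where at most 0.176% of all genes did. In e/e mice an unadjusted p under 0.05 was reached by 0 of 19 ligands, 0 of 12 receptor and signalling genes, 2 of 15 sensors and adaptors, 6 of 35 further stimulated genes and 7 of 14 interferon gamma induced genes, all with lower means, beside 1.78% of all genes. In wild-type mice the counts were 1, 0, 0, 2 and 0, beside 12.3% of all genes in either direction. The interferon gamma induced genes showed the widest spread, with e/e list medians of -1.65 and 0.59 under PBS and of -1.94 to -1.96 under NDP-MSH. Their median e/e difference was -1.45 (14 of 14 lower) beside -0.58 for the type I genes.

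**Figure D5:**
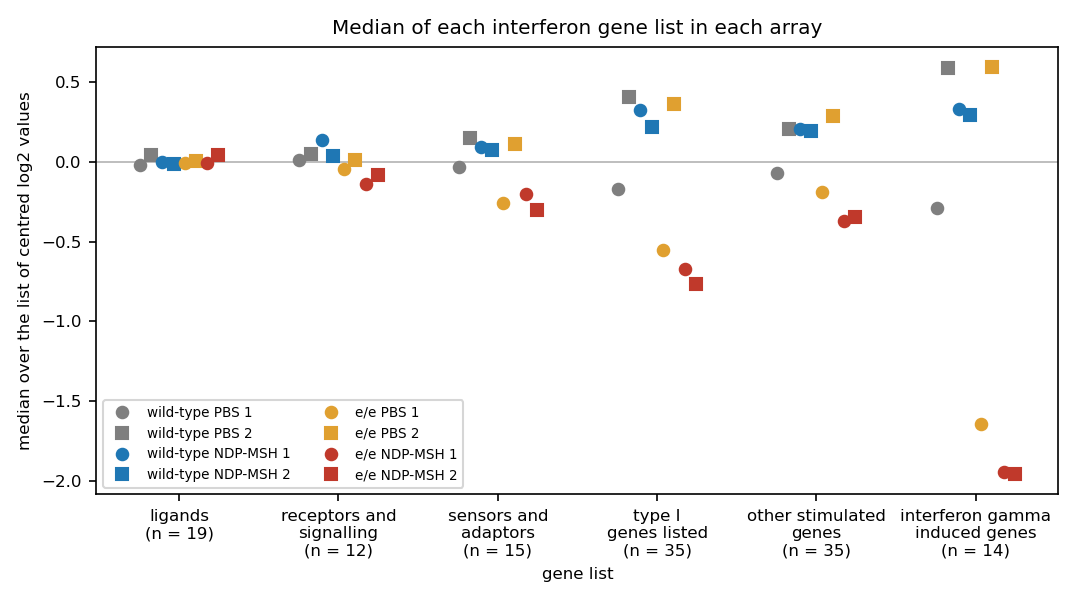
Median over each gene list of the centred log2 values (y axis) in each array (points; colour for the group, circle for replicate 1 and square for replicate 2), for 6 lists along the interferon pathway (x axis, with the number of genes found). The ligand medians stay between -0.020 and 0.044, and the medians of the listed type I genes spread from -0.77 to 0.41 and those of the interferon gamma induced genes from -1.96 to 0.59.

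Markers of some infiltrating cells moved with these genes and those of others did not. The median of 8 monocyte and macrophage markers, all found, was -0.77 for e/e PBS 1, 0.087 for e/e PBS 2, -0.99 to -0.86 for e/e NDP-MSH, between 0.087 and 0.48 in wild-type PBS and between 0.12 and 0.49 in wild-type NDP-MSH. In e/e mice 7 of 8 had a lower mean after NDP-MSH. The median of the 6 T cell markers found of 8 lay between -0.27 and 0.098 in e/e PBS and between -0.57 and -0.35 in e/e NDP-MSH, with 6 of 6 lower, and between -0.011 and 0.47 in the wild-type arrays. The 3 B cell markers found of 4 all had a higher e/e mean after NDP-MSH, with a median difference of 0.041. The median of the 6 neutrophil markers was 0.26 for e/e PBS 1, where the interferon-stimulated genes were low, and -0.0093 for e/e PBS 2, where they were high. For the 5 microglia markers found of 6 the medians lay between -0.31 and -0.028 in the e/e arrays and between 0.094 and 0.35 in the wild-type arrays. The 5 markers of plasmacytoid dendritic cells, a major source of interferon alpha, had medians between -0.076 and 0.033 in 7 arrays and 0.33 in wild-type NDP-MSH 1. That last median was the value of Cox6a2, which was also 0.33 in wild-type NDP-MSH 2. Wild-type NDP-MSH 1 was also the array with high pituitary markers. Absolute levels cannot be read, so no marker can be called absent. The part of these cells in the values above was not tested, and in whole brain fewer cells of a type and less RNA per cell cannot be told apart.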

How the data were processed

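Per the labels, whole-brain RNA of 8 samples was hybridised to 1 expression array each. The authors deposited log-scale values for 33793 probe sets, which were read as log2. The base of the logarithm, the background correction and the normalization were not given in the sources used here. Every row has a median of 0 over the 8 arrays (within 5e-07), so the table is centred by row, and the number of arrays limits the precision. Signal before centring was placed from the single-precision step of the values, and 319 rows could not be read this way.

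GEO's platform annotation gave 23521 probe sets 1 gene symbol, 1814 several and 8458 none. The mean of a gene's probe sets with 1 symbol was used (22180 genes). limma 3.58.1 in R 4.3.3 fitted all 4 groups together with lmFit and eBayes (4 residual and 3.45 prior degrees of freedom), and p-values were adjusted by Benjamini-Hochberg over all genes, with a threshold of 0.05. Errors are standard errors. The script was tested on simulated data. The genes named with values in every array were the 8 with the smallest p in each comparison, the factors Irf1, Irf7, Irf9 and Stat2, the sensors Ifih1, Dhx58, Eif2ak2 and Zbp1, and Isg15 and Usp18. Ifit1 and Oasl2 were added after their values were seen. The genes and the pathway and marker lists were chosen with earlier results of these data known. Other settings tried were array weights, a block for the replicate number, other normalizations, robust moderation, probe sets singly, well-expressed genes alone, the compared groups alone, and leaving out each array. Leaving out the same-numbered PBS array of both genotypes was added after seeing the data.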

Additional observations from a re-analysis of the deposited data

How the results depend on the processing

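Of the interferon-stimulated genes 0 passed in any of the 4 comparisons with array weights, the replicate block, arrays centred on their medians, robust moderation, another quantile normalization, or single probe sets. None passed among the 8 genes at signal 8 or above when only such genes were tested, nor with the compared groups alone, a fit that does not exist for the difference of effects, which uses all groups. The labels do not say that replicate numbers pair the arrays. Deviations of same-numbered arrays correlated at 0.443 between the PBS groups, at 0.179 and 0.128 between e/e NDP-MSH and the e/e and wild-type PBS groups, and at -0.251 to -0.098 in the 3 pairs with wild-type NDP-MSH, so the numbers were not taken as a pairing. With the replicate block 14 genes of 22180 passed in wild-type mice instead of 39 and 0 in e/e mice. Single arrays mattered more. Leaving out 1 array at a time, the wild-type median ran from -0.21 to 0.43, the e/e median from -1.19 to -0.15 with 0 to 1 genes past the threshold, the median difference of effects from 0.27 to 1.28, and the median between the PBS groups from -0.71 to 0.29. Among the 8 genes with the smallest p between the PBS groups, 5 changed sign: Ifit3 ran from -0.022 without wild-type PBS 1 to 0.26 without wild-type PBS 2, and from leaving out e/e PBS 2 to leaving out e/e PBS 1 Irf7 ran from -1.74 to 0.19, Rtp4 from -1.38 to 0.19, Irf9 from -0.91 to 0.14 and Oas1g from -1.13 to 0.19. Over the 8 genes at signal 8 or above the e/e median was -1.14 and the difference of effects 1.32.

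A pair of settings was chosen after seeing the data. With PBS array 1 of both genotypes left out, 19 of 35 genes passed in e/e mice (0.667% of all genes). For the difference of effects 7 of 35 passed, beside 0.194% of all genes. The e/e median was then -1.19, the wild-type median was -0.21 and Ifit3 between the PBS groups was -0.040. With PBS array 2 of both left out, 0 passed. These arrays were picked after their values in these genes were known, and leaving them out removes the spread between PBS arrays from the error, so nothing here rests on the 19 or the 7. With 2 arrays a group and centred values, small differences could not be detected and absolute levels could not be read. The cause of these shifts was not tested.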
